A study of Mus musculus with 10 samples.

Results

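The genes described here are 54 mouse genes of the cell division cycle. They were the rows of the deposited count table whose Entrez identifiers belong to a fixed list of symbols, 54 of the 24454 genes in the table. The list was divided by role into 5 genes of G1 entry, 21 genes of the G1/S transition and of DNA replication, 25 mitotic genes and 3 inhibitors of cyclin-dependent kinases. The cells were a subclone, E9, of NMuMG, a line of normal mouse mammary gland epithelial cells that undergoes an epithelial-mesenchymal transition when given the cytokine TGFbeta. The RNA sequencing libraries fell into 4 groups. All cells were transfected with 20 nM siRNA and collected 3 d later. The siIrf1 TGFbeta group (3 libraries, replicates 1, 2 and 3) received an siRNA against Irf1, the mRNA of interferon regulatory factor 1, and TGFbeta1 at 2 ng/ml for the last 2 d. The siCtr TGFbeta group (2 libraries, replicates 2 and 3) received a control siRNA and the same TGFbeta. The siIrf1 0 d group (3 libraries) and the siCtr 0 d group (2 libraries, replicates 1 and 3) received the siRNA against Irf1 or the control siRNA and no TGFbeta. The line is a single subclone, and knockdown lowers an mRNA without deleting the gene.

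Cells pass from G1 into DNA synthesis when cyclin-dependent kinases release the E2F transcription factors, which switch on the genes for replication origins, helicase and nucleotide supply. Later, a complex that binds CHR elements, together with NF-Y at CCAAT boxes and the factor Foxm1, switches on the mitotic genes, which peak as cells divide. In epithelial cells TGFbeta is known as a cytostatic factor that holds cells in G1, with induction of the kinase inhibitor p15, the product of Cdkn2b, and repression of Myc as textbook steps.

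Libraries held 27547649 to 67301646 counts. The 54 genes took 0.808, 0.814 and 0.777% of them in siIrf1 TGFbeta cells and 0.534 and 0.526% in siCtr TGFbeta cells. They took 1.13, 1.14 and 1.11% in siIrf1 0 d cells and 0.966 and 0.911% in siCtr 0 d cells. Irf1 itself had 36.5, 46.2 and 41.0 CPM (counts scaled to the effective library size) in siIrf1 TGFbeta cells, against 106 and 112 CPM in siCtr TGFbeta cells. It had 56.4, 64.1 and 57.7 CPM in siIrf1 0 d cells, against 148 and 129 CPM in siCtr 0 d cells. Of 8 epithelial markers, Cdh1 and 4 keratins were expressed, while Epcam, Cldn3 and Cldn7 stayed under 1 CPM in every library. Summed epithelial markers lay at 6929 to 12116 CPM in siIrf1 TGFbeta cells and 13699 to 14680 CPM in siCtr TGFbeta cells, and at 8227 to 9433 CPM in siIrf1 0 d cells and 9334 to 10730 CPM in siCtr 0 d cells. These sums hide opposite changes. With TGFbeta in siCtr cells 3 of the 5 tested markers had positive and 2 negative log2 fold changes, from -2.99 to 2.78. For siIrf1 over siCtr with TGFbeta 2 were positive and 3 negative, from -1.22 to 1.63. Summed fibroblast markers (Col1a1, Pdgfrb and 6 others, of which Col1a2, Lum and Thy1 had no count) reached 27.1 to 38.9 CPM with TGFbeta, against 0.424 to 0.976 CPM without it. Summed endothelial markers reached at most 6.64 CPM, and summed immune markers lay between 27.4 and 58.0 CPM. The part of such markers in the results below was not tested. Libraries also differed in how read levels moved with base composition. The mean deviation of log2 level from each gene's mean over libraries, in the fifth of genes with the lowest GC content minus that in the fifth with the highest, was 0.73, -0.39 and 0.83 in siIrf1 TGFbeta and -0.51 and -0.51 in siCtr TGFbeta. It was 0.80, 0.21 and 1.01 in siIrf1 0 d and -1.46 and -0.71 in siCtr 0 d, so that all siCtr libraries lay below 0 and siCtr 0 d replicate 1 lay lowest.

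Of the 54 genes 53 had enough counts to be tested among 13135 genes. Changes are log2 fold changes ± SE from edgeR's quasi-likelihood test, with p-values adjusted by Benjamini-Hochberg over all genes tested and a threshold of 0.05. Nothing in the labels says that replicates came from separate cultures, and the p-values measure the spread between these libraries, which may be technical. In bulk RNA fewer dividing cells and less RNA per dividing cell cannot be told apart. The single gene not tested was Cdkn1c, which encodes the inhibitor p57, with 1 count over all 10 libraries. A count of 0 allows up to 3 counts in a library, from counting error only.

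**Figure D1:**
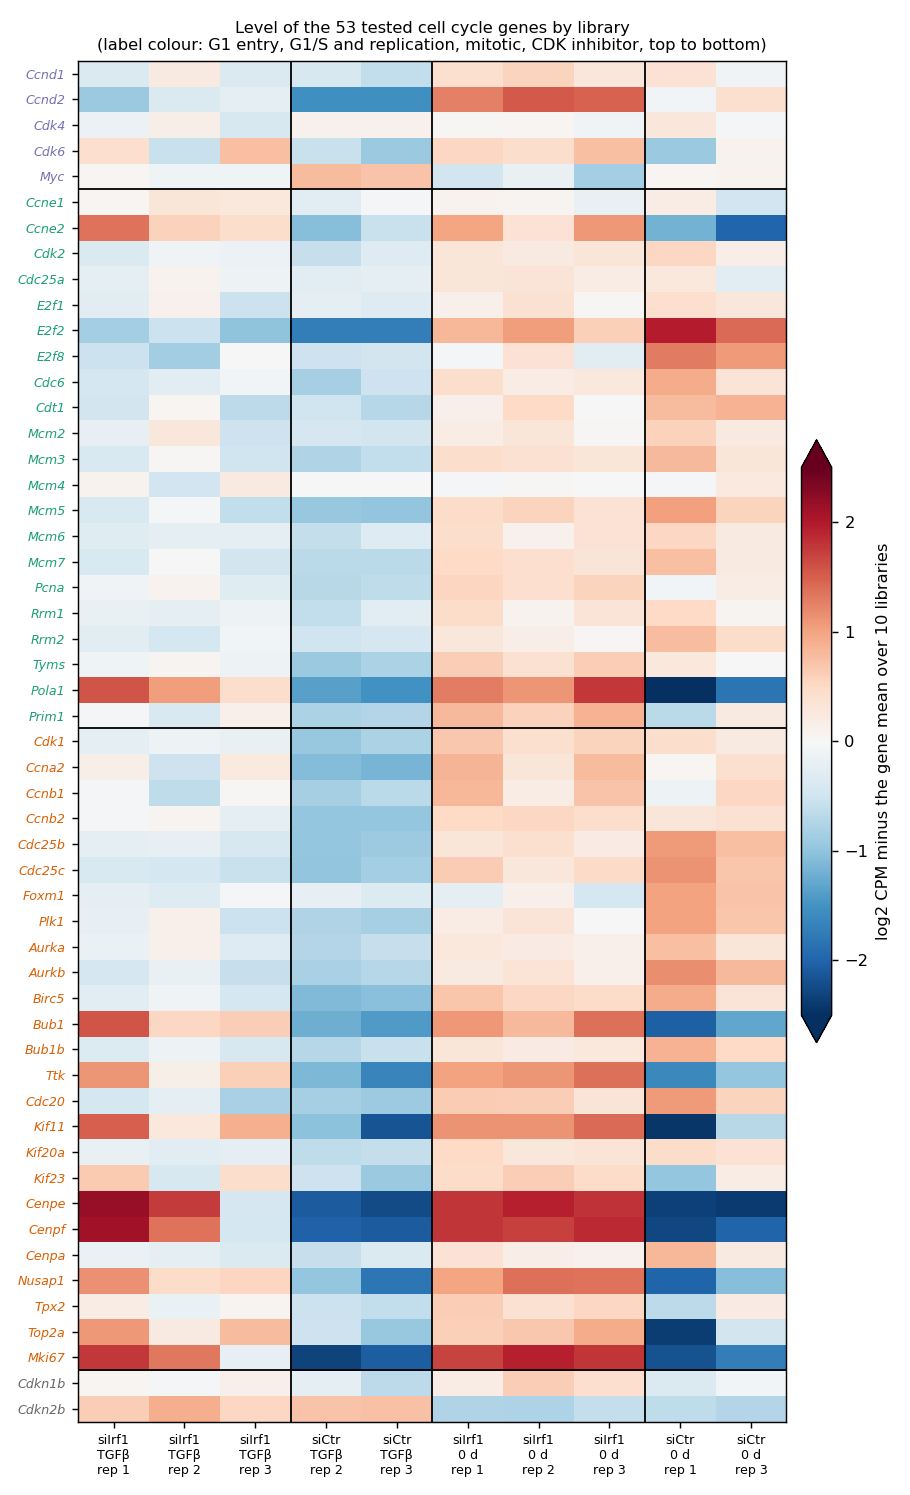
Level of the 53 tested cell cycle genes in each library, as log2 CPM minus the mean of the gene over the 10 libraries (red above, blue below, colours end at 2.5), with columns grouped by siRNA and TGFbeta and rows by role. Cdk1, Ccnb2, Mcm5 and E2f2 are lowest in the 2 siCtr TGFbeta libraries, while Mki67, Cenpe, Cenpf, Pola1, Bub1 and Ttk are low in all 4 siCtr libraries.

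TGFbeta lowered much of the list in siCtr cells. Of the 53 genes tested, 30 fell and 2 rose, at a background of 32.5% of all genes called (16.1% up and 16.3% down). The falls reached from G1 regulators through the replication helicase to kinases and cyclins of mitosis. The median log2 fold change was -0.84 over the 53 genes, against 0.02 over all genes tested. Between 23 and 32 genes fell when any 1 of the 10 libraries was left out.

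Among the genes of G1 entry, Ccnd2, which encodes cyclin D2, had 53.9 and 53.5 CPM in siCtr TGFbeta cells, against 148 and 206 CPM in siCtr 0 d cells. The groups did not overlap, and the log2 fold change was -1.72 ± 0.25 (adjusted p = 0.000502). Myc, which encodes a transcription factor of growth and cycle entry, had 153 and 146 CPM with TGFbeta, against 92.0 and 93.7 CPM without it. Both TGFbeta libraries were the higher ones, opposite to the direction described for Myc in textbook accounts of TGFbeta. These cells had 2 d of TGFbeta, and no earlier time was sampled. The log2 fold change was 0.69 ± 0.20 (adjusted p = 0.0265). That call was lost without siCtr TGFbeta replicate 2 (adjusted p = 0.0894) or replicate 3 (0.060), or siCtr 0 d replicate 1 (0.0839). Ccnd1, which encodes cyclin D1, had 673 and 583 CPM with TGFbeta, against 1154 and 843 CPM without it, and missed the threshold (-0.67 ± 0.24, adjusted p = 0.0529). The kinase genes Cdk4 and Cdk6, partners of the D-type cyclins, had overlapping groups.

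The inhibitor gene Cdkn2b was the other gene that rose. It had 99.2 and 100.2 CPM in siCtr TGFbeta cells, against 38.6 and 36.3 CPM in siCtr 0 d cells (log2 fold change 1.41 ± 0.18, adjusted p = 0.000216). In siIrf1 cells it had 92.0, 113 and 86.8 CPM with TGFbeta, against 35.7, 35.4 and 40.1 CPM without it (1.39 ± 0.15, adjusted p = 7.89e-05). Every TGFbeta library stood above every 0 d library, and the difference between the 2 rises was -0.02 ± 0.23 (adjusted p = 0.975). Cdkn1b, which encodes the inhibitor p27, did not pass the test for TGFbeta in either siRNA group, at -0.22 ± 0.21 in siCtr cells and -0.38 ± 0.17 in siIrf1 cells.

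Of the 21 genes of G1/S and replication, 14 fell in siCtr cells with TGFbeta and 0 rose (edgeR; 0 rose at an unadjusted p under 0.05, and 0 by DESeq2). E2f2, which encodes an activating E2F factor, had 3.68 and 3.70 CPM in siCtr TGFbeta cells, against 48.1 and 32.7 CPM in siCtr 0 d cells. The groups were far apart, at a log2 fold change of -3.45 ± 0.28 (10.9-fold lower, adjusted p = 1.36e-05). Of the 6 subunits of the replicative helicase, Mcm2, Mcm3, Mcm5, Mcm6 and Mcm7 fell, with log2 fold changes of -0.84 to -1.78, while Mcm4 had 267 and 267 CPM with TGFbeta, against 256 and 315 CPM without it. The fall was steepest for Mcm5, at 118 and 114 CPM with TGFbeta, against 462 and 332 CPM without it (-1.78 ± 0.23, adjusted p = 0.000222). Mcm2 had 239 and 231 CPM with TGFbeta, against 475 and 371 CPM without it (-0.85 ± 0.25, adjusted p = 0.0242). The Mcm2 call was lost without siCtr TGFbeta replicate 2 (adjusted p = 0.150), siCtr TGFbeta replicate 3 (0.144) or siCtr 0 d replicate 1 (0.175).

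The licensing factors Cdc6 and Cdt1, which load the helicase, fell by 1.31 and 1.43 on the log2 scale. Rrm2, the regulated subunit of ribonucleotide reductase, had 131 and 139.9 CPM with TGFbeta, against 319.6 and 255 CPM without it (-1.08 ± 0.18, adjusted p = 0.00139). Its partner Rrm1 and the thymidylate synthase gene Tyms fell by 0.72 and 0.99. Pcna, the sliding clamp of the replicative polymerases, had 171 and 178 CPM with TGFbeta, against 265 and 315 CPM without it, and both TGFbeta libraries were lower (-0.73 ± 0.17, adjusted p = 0.00784). E2f8, an E2F factor that represses, fell by 1.68. E2f1, an activating factor, missed the threshold at 77.7 and 72.4 CPM with TGFbeta, against 122 and 110.3 CPM without it (-0.63 ± 0.22, adjusted p = 0.0504). Ccne1, which encodes cyclin E1, did not differ beyond its spread, with 47.8 and 55.3 CPM with TGFbeta, against 65.2 and 41.2 CPM without it. Without siCtr TGFbeta replicate 2 the calls of Cdk2, Mcm6, Pcna and Rrm1 were lost too (adjusted p = 0.151, 0.0962, 0.124 and 0.240), and Cdk2, Mcm6 and Rrm1 lost theirs without siCtr 0 d replicate 1 (0.108, 0.0545 and 0.204). That of Pcna was also lost without siCtr TGFbeta replicate 3 (0.0749) or siCtr 0 d replicate 3 (0.0914).

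Of the 25 mitotic genes, 15 fell and 0 rose (edgeR; 0 rose at an unadjusted p under 0.05, and 0 by DESeq2). Cdk1, the kinase that drives mitotic entry, had 119 and 133 CPM in siCtr TGFbeta cells, against 309.9 and 268 CPM in siCtr 0 d cells (-1.20 ± 0.16, adjusted p = 0.000282). Cdc25b, a phosphatase that activates Cdk1, had 40.2 and 41.7 CPM, against 165 and 133 CPM (-1.86 ± 0.17, adjusted p = 2.76e-05). Its relative Cdc25c had 10.6 and 11.7 CPM with TGFbeta, against 45.7 and 34.1 CPM without it. Groups did not overlap for any of the 3 genes. Aurkb, the kinase of the chromosomal passenger complex, had 43.7 and 46.7 CPM with TGFbeta, against 171 and 135 CPM without it (-1.76 ± 0.19, adjusted p = 8.53e-05). Plk1, Birc5 and Cdc20, a mitotic kinase, a partner of Aurkb and an activator of the anaphase-promoting complex, fell by 1.65, 1.73 and 1.70. Ccnb1, which encodes cyclin B1, had 23.8 and 26.6 CPM with TGFbeta, against 38.6 and 60.6 CPM without it (-0.98 ± 0.31, adjusted p = 0.0348). Its call was lost without siCtr TGFbeta replicate 2 (adjusted p = 0.229), siCtr TGFbeta replicate 3 (0.127), siIrf1 0 d replicate 3 (0.0521) or siCtr 0 d replicate 3 (0.269), and that of Cenpa, a centromeric histone gene, without siCtr TGFbeta replicate 2 (0.0686) or siCtr 0 d replicate 1 (0.0554).

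The 10 mitotic genes that did not pass were Bub1, Ttk, Kif11, Kif23, Cenpe, Cenpf, Nusap1, Tpx2, Top2a and Mki67. Mki67, which encodes the proliferation antigen Ki-67, had 14.3 and 17.1 CPM in siCtr TGFbeta cells, against 15.7 and 21.5 CPM in siCtr 0 d cells, so that the groups overlapped (-0.25 ± 0.48, adjusted p = 0.716). The kinesin genes Cenpe and Kif11 and the topoisomerase gene Top2a had log2 fold changes of 0.21 ± 0.62, -0.16 ± 0.56 and 0.40 ± 0.50. Over the whole list, the 30 genes that fell had transcripts of 43.3 to 57.8% GC (median 49.3%), and the 21 genes not called had a median of 44.0%. Over all genes tested the fold change went with GC content as well. The fifth with the lowest GC had a median log2 fold change of 0.66, and the fifth with the highest had -0.13. With a trend on gene length and GC content removed from each library, 36 of the 53 genes fell and 3 rose. The background was then 43.9% of all genes called, against 32.5% without the removal.

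**Figure D2:**
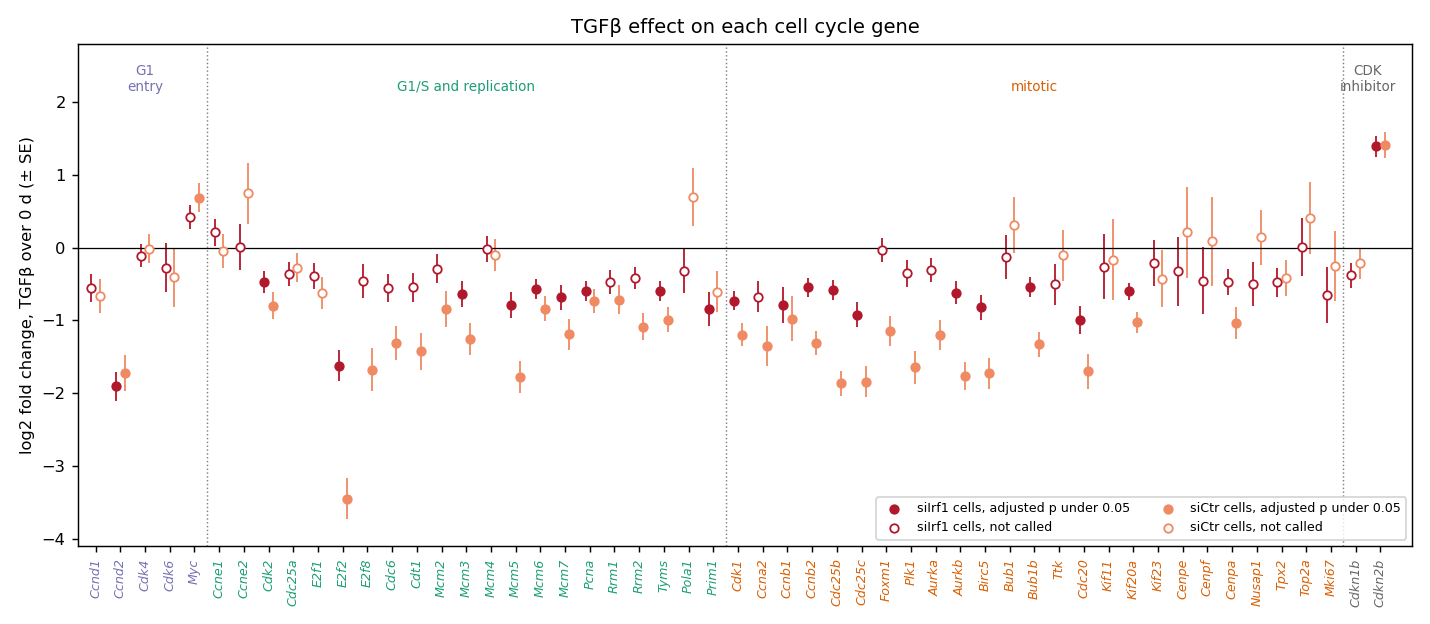
Log2 fold change (± SE) of TGFbeta over 0 d for each tested cell cycle gene, in siIrf1 cells (dark red) and siCtr cells (orange), filled where the adjusted p is under 0.05 and open where it is not. Most filled points lie below 0, the siCtr point lies lowest for E2f2, and Cdkn2b lies at about the same height in both.

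In siIrf1 cells TGFbeta lowered 20 of the 53 genes and raised 1, Cdkn2b, at a background of 21.3% of all genes called (11.6% up and 9.71% down). Of the 20 genes that fell, 19 were also among the 30 that fell in siCtr cells (95% of the 20 and 63.3% of the 30). These comparisons share no library, but they came from 1 model with a shared estimate of the spread. The overlap over all genes was not counted. The falls were in 9 of the 21 genes of G1/S and replication and in 10 of the 25 mitotic genes, beside Ccnd2. The median log2 fold change was -0.47 in the first class and -0.51 in the second. Replicate numbers paired the libraries of this comparison, and with the number as a block 24 genes fell. Cdk2 lost its call with the block (adjusted p = 0.0642) and Ccnd1, Cdt1, Rrm1, Ccna2 and Cenpa gained one (0.0251, 0.0192, 0.0442, 0.0277 and 0.0484).

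Ccnd2 had 81.3, 122 and 131 CPM in siIrf1 TGFbeta cells, against 371, 449.5 and 431 CPM in siIrf1 0 d cells, and was lower in all 3 TGFbeta libraries (-1.91 ± 0.20, adjusted p = 9.41e-05). E2f2 had 6.76, 8.43 and 6.11 CPM with TGFbeta, against 21.8, 25.3 and 18.5 CPM without it (-1.62 ± 0.21, adjusted p = 0.000388). Mcm5 had 173, 223 and 147 CPM with TGFbeta, against 312, 332 and 292 CPM without it (-0.78 ± 0.18, adjusted p = 0.0102). In each of these genes the TGFbeta and 0 d libraries were clear of one another. Cdk1 had 195, 209 and 201 CPM with TGFbeta, against 365, 303 and 336 CPM without it (-0.73 ± 0.13, adjusted p = 0.00224). Cdc20 had 70.8, 81.9 and 54.8 CPM with TGFbeta, against 149, 146 and 119 CPM without it (-0.999 ± 0.19, adjusted p = 0.00369). Cdc25c fell by 0.92 and Pcna by 0.59. Foxm1, the transcription factor of the mitotic programme, had 134, 127 and 154 CPM with TGFbeta, against 134, 174 and 117 CPM without it, and the groups overlapped (-0.04 ± 0.17).

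Several falls in siIrf1 cells lost their call when 1 library was left out. Without siIrf1 TGFbeta replicate 1, or without siIrf1 0 d replicate 1, 10 genes fell, and without siIrf1 0 d replicate 3, 13 fell. Calls over all genes dropped as well, from 21.3% to 15.6, 15 and 14.9% in the same order. Cdk2 lost its call in 9 of the 10 removals and Ccnb1 in 7. Aurkb, Bub1b, Ccnb1, Ccnb2, Cdk2, Mcm3, Mcm6, Mcm7, Prim1 and Tyms lost their calls without siIrf1 TGFbeta replicate 1, with adjusted p of 0.0531 to 0.190. Their log2 fold changes there were -0.39 to -0.86, against -0.47 to -0.84 with all libraries.

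Falls were steeper in siCtr cells for some genes of the list. The difference between the TGFbeta effects, siIrf1 minus siCtr, passed the test for 5 of the 53 genes, at a background of 4.12% of all genes called (2.8% up and 1.32% down). All 5 differences were positive, E2f2 at 1.83 ± 0.34 (adjusted p = 0.0148), Plk1 at 1.30 ± 0.29 (0.0377), Cdc25b at 1.29 ± 0.22 (0.00975), Aurkb at 1.14 ± 0.24 (0.0296) and Foxm1 at 1.11 ± 0.27 (0.0486). Foxm1 lost its call with the replicate number as a block (adjusted p = 0.0686). No gene passed with a negative difference (0 at an unadjusted p under 0.05, and 0 by DESeq2), while 18 had a positive one at an unadjusted p under 0.05 and DESeq2 called 12. Plk1 shows the pattern. It had 68.0, 86.1 and 54.2 CPM in siIrf1 TGFbeta cells, against 89.4, 98.3 and 78.1 CPM in siIrf1 0 d cells. In siCtr cells it had 47.0 and 44.3 CPM with TGFbeta, against 158 and 128 CPM without it. The siCtr cells thus held both the lowest and the highest levels.

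Aurkb had 57.5, 67.8 and 51.6 CPM in siIrf1 TGFbeta cells, against 89.9, 97.7 and 83.8 CPM in siIrf1 0 d cells. Cdc25b had 66.9, 68.7 and 59.2 CPM in siIrf1 TGFbeta cells, against 97.2, 103 and 90.1 CPM in siIrf1 0 d cells. Both genes had the same order of groups as Plk1, lowest in siCtr TGFbeta and highest in siCtr 0 d. Foxm1 had 137 and 125 CPM in siCtr TGFbeta cells, against 319 and 260.4 CPM in siCtr 0 d cells, and its other 3 groups overlapped. When each library was left out in turn, the difference ran from 1.49 to 1.97 for E2f2, 1.08 to 1.35 for Cdc25b and 1.10 to 1.45 for Plk1. It ran from 0.92 to 1.23 for Aurkb and 0.92 to 1.28 for Foxm1. All 5 calls were lost without siCtr TGFbeta replicate 2, siCtr TGFbeta replicate 3 or siCtr 0 d replicate 1. Each of these removals left a single library in a group, and calls over all genes dropped there too. Plk1, Aurkb and Foxm1 were also lost without siIrf1 TGFbeta replicate 1 (0.0548 to 0.0820), siIrf1 0 d replicate 1 (0.0841 to 0.130) or siIrf1 0 d replicate 3 (0.0892 to 0.116), Foxm1 without siIrf1 TGFbeta replicate 3 (0.0794) and Plk1 without siIrf1 0 d replicate 2 (0.0532).

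**Figure D3:**
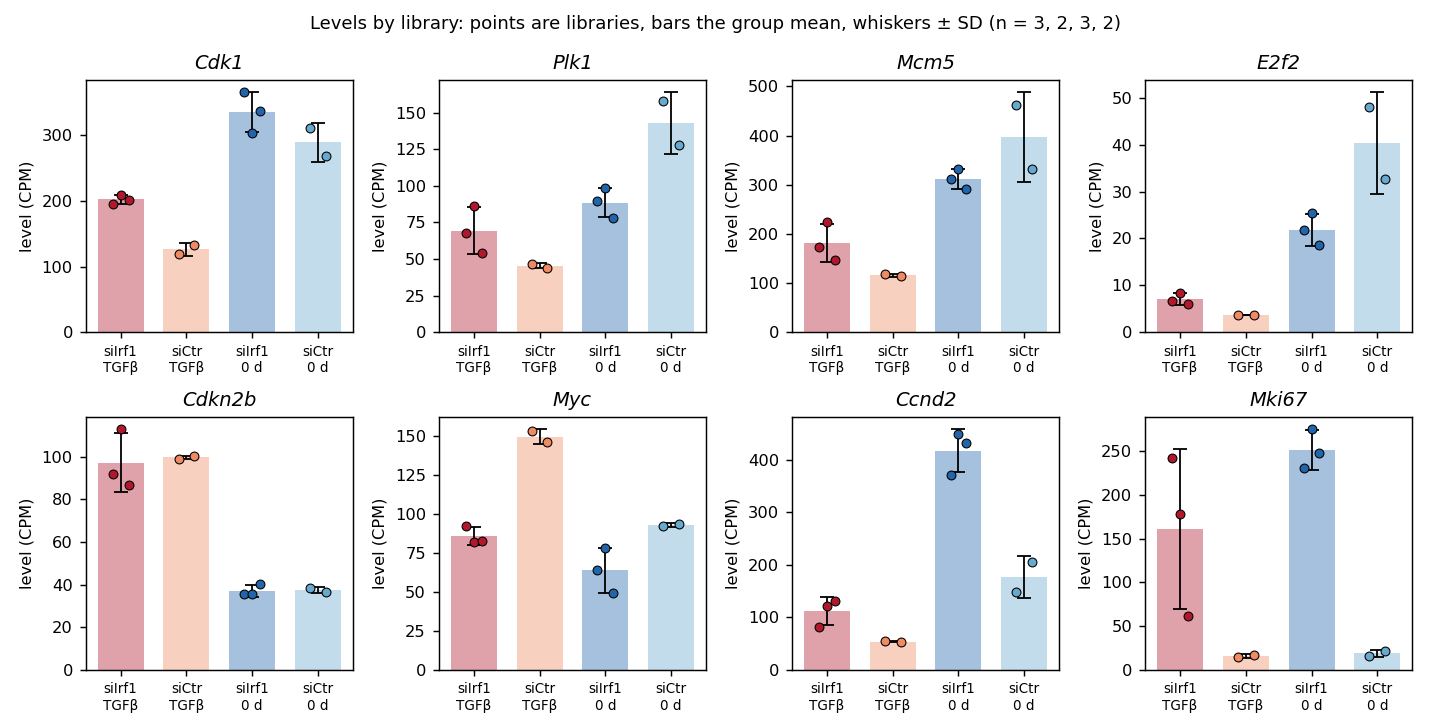
Levels in CPM (linear axes from 0) of 8 genes, with a point for each library, bars at the group mean and whiskers of ± 1 SD (n = 3, 2, 3 and 2). Cdk1, Plk1, Mcm5 and E2f2 are lowest with control siRNA and TGFbeta, Cdkn2b is high in all 5 TGFbeta libraries, and Mki67 is high in the siIrf1 groups, with siIrf1 TGFbeta replicate 3 lowest of the 6.

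Without TGFbeta, genes of the list both rose and fell under the siRNA against Irf1. At 0 d 14 of the 53 genes rose (26.4%) and 7 fell (13.2%) in siIrf1 cells. The background was 31.8% of all genes called (16.3% up and 15.5% down), so that the share that fell was under it. The median over the list was -0.01, against -0.03 over all genes. The mitotic genes gave 9 rises (36%) and 4 falls (16%) among 25. The genes of G1/S and replication gave 3 rises (14.3%) and 2 falls (9.52%) among 21, both under the background.

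Mki67 had 231, 275 and 248 CPM in siIrf1 0 d cells, against 15.7 and 21.5 CPM in siCtr 0 d cells (log2 fold change 3.76 ± 0.51, adjusted p = 0.00116). Bub1, a kinase of the spindle checkpoint, had 45.0, 37.3 and 55.2 CPM, against 5.14 and 8.58 CPM in siCtr 0 d cells (2.74 ± 0.39, adjusted p = 0.00136). Nusap1, a protein that binds spindle microtubules, had 65.9, 85.4 and 84.2 CPM, against 8.21 and 15.8 CPM (2.71 ± 0.38, adjusted p = 0.00129). All siIrf1 libraries stood several-fold above all siCtr libraries. Cenpe, Cenpf, Kif11, Ttk, Top2a and Tpx2 were the other mitotic genes that rose, by 4.21, 3.92, 2.54, 2.42, 1.86 and 0.67 on the log2 scale. Pola1, the catalytic subunit of DNA polymerase alpha, had 32.1, 28.4 and 45.4 CPM, against 2.28 and 3.76 CPM in siCtr 0 d cells (3.54 ± 0.41, adjusted p = 0.000595). Ccne2, which encodes cyclin E2, had 12.3, 8.03 and 13.3 CPM, against 2.75 and 1.58 CPM (2.39 ± 0.41, adjusted p = 0.00285). Prim1, a subunit of primase, was the third of its class to rise, by 0.92. Prim1 lost its call without siIrf1 0 d replicate 1 (adjusted p = 0.0699), siIrf1 0 d replicate 3 (0.0809) or siCtr 0 d replicate 1 (0.194), Top2a without siIrf1 0 d replicate 3 (0.0528), and Tpx2 on leaving out each of 8 libraries in turn (0.0570 to 0.348). The 2 siCtr 0 d libraries set the size of several rises, since Kif11 had 7.58 and 25.4 CPM in them and Top2a 44.3 and 168 CPM. Without replicate 1 of that group the log2 fold change was 1.91 for Kif11, 1.18 for Top2a, 0.30 for Tpx2 and 0.52 for Prim1, and without replicate 3 it was 3.73, 3.18, 1.23 and 1.51 in the same order.

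Ccnd2 had 371, 449.5 and 431 CPM in siIrf1 0 d cells, against 148 and 206 CPM in siCtr 0 d cells (1.24 ± 0.23, adjusted p = 0.00395). Cdkn1b had 51.8, 69.4 and 60.9 CPM, against 35.1 and 43.0 CPM (0.64 ± 0.20, adjusted p = 0.0346). It took the other sign with the length and GC trend removed, at -0.28 (adjusted p = 0.351), and -0.45 (0.0488) with the replicate block as well. The Cdkn1b call was also lost without siCtr 0 d replicate 1 (adjusted p = 0.236), siIrf1 0 d replicate 2 (0.0808), siIrf1 0 d replicate 3 (0.0911) or siIrf1 TGFbeta replicate 1 (0.0547).

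Foxm1 had 134, 174 and 117 CPM in siIrf1 0 d cells, against 319 and 260.4 CPM in siCtr 0 d cells (-1.03 ± 0.19, adjusted p = 0.00351). E2f8 had 57.4, 75.9 and 49.2 CPM, against 146 and 125 CPM (-1.16 ± 0.26, adjusted p = 0.00929). In both genes all siIrf1 libraries were lower than both siCtr libraries. Aurkb, Plk1 and Cdc25b fell by 0.76, 0.69 and 0.62, E2f2 by 0.88 and Myc by 0.54. Of the 7 falls only that of Foxm1 remained without siCtr 0 d replicate 1, where the others had adjusted p of 0.0557 to 0.202. Without siIrf1 0 d replicate 1 there were 4 falls and without siIrf1 0 d replicate 3 there were 3, and Myc lost its call on leaving out each of 8 libraries in turn (adjusted p = 0.0525 to 0.155).

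Rises and falls at 0 d were divided by base composition. The 14 genes that rose had transcripts of 36.3 to 47.8% GC, and the 7 that fell had 50.1 to 56.6%, with no overlap. All genes called showed the same direction, with a median of 43.0% for those that rose and 53.8% for those that fell. Across the 53 genes the log2 fold change had a correlation of -0.69 with GC content, and across 12474 genes it was -0.54, as a description of points that share the same libraries. The list also held 3 strong risers that were long, Cenpf at 11122 bases, Mki67 at 10075 and Cenpe at 7813. With the length and GC trend removed Mki67 kept a log2 fold change of 3.25, Cenpe 2.98, Cenpf 2.74 and Pola1 2.21, and all 4 stayed called (adjusted p = 0.00240, 0.0143, 0.0141 and 0.00195). Ccne2 dropped to 0.52 (adjusted p = 0.185) and Prim1 to 0.21 (0.205), while Myc, Plk1 and Cdc25b were no longer called (0.375, 0.0918 and 0.101). About as many calls were gained, for 14 rises and 8 falls in all, at a background of 36% of all genes called. Ccne1, E2f1 and Cdkn2b then rose, by 0.45, 0.33 and 0.44, and Mcm4, Rrm1, Rrm2 and Cdc25c fell, by 0.57, 1.05, 0.83 and 1.26, so that 5 genes of G1/S and replication fell instead of 2.

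**Figure D4:**
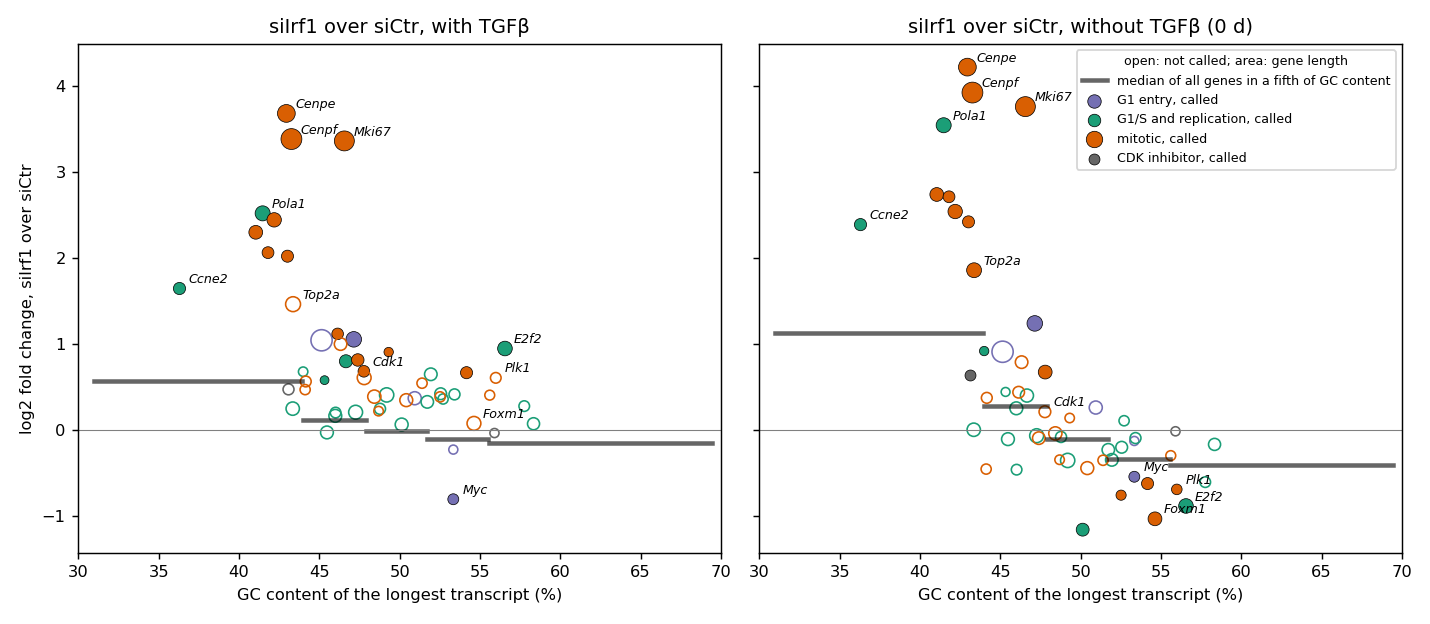
Log2 fold change of siIrf1 over siCtr against transcript GC content for the 53 tested cell cycle genes, with TGFbeta on the left and without it on the right. Filled points passed the test, point area grows with gene length, and black bars are the medians of all genes in 5 bins of GC content. Mki67, Cenpe, Cenpf and Pola1 lie far above the bar of their GC range in both panels.

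With TGFbeta present the shift under the siRNA against Irf1 was mostly upward. In siIrf1 TGFbeta cells 18 of the 53 genes rose and 1 fell relative to siCtr TGFbeta cells, at a background of 18% of all genes called (9.72% up and 8.28% down). The median was 0.54, against 0.05 over all genes. Of the 25 mitotic genes 12 rose and 0 fell (edgeR; 0 fell at an unadjusted p under 0.05, and 0 by DESeq2), and all 25 had a positive log2 fold change. Of the 21 genes of G1/S and replication 5 rose, and 20 of the 21 were positive.

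Mki67 had 242, 178 and 61.6 CPM in siIrf1 TGFbeta cells, against 14.3 and 17.1 CPM in siCtr TGFbeta cells (3.36 ± 0.50, adjusted p = 0.00200). Replicate 3 was the lowest siIrf1 library and still above both siCtr libraries, and Cenpe followed the same order with 77.4, 56.9 and 12.7 CPM, against 4.02 and 3.63 CPM. Bub1 had 63.1, 30.3 and 32.3 CPM, against 9.04 and 7.99 CPM (2.30 ± 0.38, adjusted p = 0.00322). Cdk1 had 195, 209 and 201 CPM, against 119 and 133 CPM (0.68 ± 0.14, adjusted p = 0.00995). Ccnb2, which encodes cyclin B2, had 48.9, 53.2 and 43.4 CPM, against 26.0 and 25.8 CPM (0.91 ± 0.15, adjusted p = 0.00332). The siIrf1 libraries were above the siCtr libraries in each of these genes. The other mitotic genes that rose were Ccna2, Cdc25b, Birc5, Ttk, Kif11, Cenpf and Nusap1.

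Among the replication genes Pola1 had 39.4, 27.4 and 17.9 CPM in siIrf1 TGFbeta cells, against 5.19 and 4.66 CPM in siCtr TGFbeta cells (2.52 ± 0.38, adjusted p = 0.00219). Tyms had 80.6, 91.1 and 79.5 CPM, against 45.9 and 50.4 CPM (0.80 ± 0.16, adjusted p = 0.00704). Ccne2 had 16.0, 9.38 and 8.55 CPM, against 3.00 and 4.26 CPM (1.64 ± 0.38, adjusted p = 0.0155). None of these groups overlapped, and E2f2 and Pcna were the remaining members of the class that rose, by 0.95 and 0.58. The helicase genes did not pass, with Mcm5 nearest to the threshold at 0.65 ± 0.20 (adjusted p = 0.0524). Myc was the gene that fell, with 92.2, 82.1 and 82.8 CPM, against 153 and 146 CPM (-0.80 ± 0.18, adjusted p = 0.0136).

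A set of 10 genes rose under the siRNA against Irf1 in both settings, which is 55.6% of the 18 with TGFbeta and 71.4% of the 14 at 0 d. The 2 comparisons share no library, but they came from 1 model with a shared estimate of the spread. The overlap over all genes was not counted. Over all genes the fifth of lowest GC content had a median of 1.12 at 0 d and 0.57 with TGFbeta, and its part in the overlap was not tested. The 10 genes were Ccnd2, Ccne2, Pola1, Bub1, Ttk, Kif11, Cenpe, Cenpf, Nusap1 and Mki67. E2f2 and Cdc25b fell at 0 d and rose with TGFbeta. Removal of siCtr TGFbeta replicate 2 or 3 left a single library in that group. Calls of the list were lost there, that of the fall of Myc among them, and calls over all genes dropped as well. When each library was left out in turn, the log2 fold change ran from 2.94 to 3.74 for Mki67, 3.19 to 4.13 for Cenpe and 2.20 to 2.76 for Pola1. It ran from 1.88 to 2.48 for Bub1, 1.73 to 2.24 for Ttk and -0.88 to -0.77 for Myc. Without siIrf1 TGFbeta replicate 1 the rises of Cdc25b, E2f2 and Pcna were lost (0.0529, 0.0537 and 0.0760), and that of Pcna also without siIrf1 0 d replicate 1 (0.0515). Removal of the length and GC trend moved the count the other way, to 31 genes that rose and 1 that fell. The background rose as well, from 18% of all genes called to 27.2%. Mki67 at 3.27, Cenpe at 3.31, Pola1 at 1.95 and Bub1 at 1.63 were all still called (adjusted p = 0.00234, 0.00948, 0.00270 and 0.000550).

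The mitotic genes and those of G1/S and replication were set side by side, with no test over either class. In siCtr cells the median log2 fold change with TGFbeta was -1.04 for the 25 mitotic genes and -0.84 for the 21 genes of G1/S and replication. The difference of -0.20 was 0.007 after removal of the length and GC trend, and -0.11 where the replicate block was added to that. In siIrf1 cells the difference was -0.03. Under the siRNA against Irf1 the mitotic median was 0.21 at 0 d and 0.68 with TGFbeta, and that of G1/S and replication was -0.09 at 0 d and 0.36 with TGFbeta. The mitotic median was thus the higher one by 0.31 at 0 d and by 0.32 with TGFbeta. These differences were 0.18 and 0.43 with the trend removed, and 0.15 at 0 d without siCtr 0 d replicate 1. Averaged over each class and library relative to the mean of all 10 libraries, the mitotic level minus that of G1/S and replication was 0.52, 0.14 and 0.11 in siIrf1 TGFbeta, against -0.30 and -0.50 in siCtr TGFbeta. It was 0.28, 0.28 and 0.33 in siIrf1 0 d, against -0.65 and -0.22 in siCtr 0 d. All 6 siIrf1 libraries were positive and all 4 siCtr libraries negative, the same division as for the GC index apart from siIrf1 TGFbeta replicate 2. The part of base composition in this division was not tested beyond the trend removal above.

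**Figure D5:**
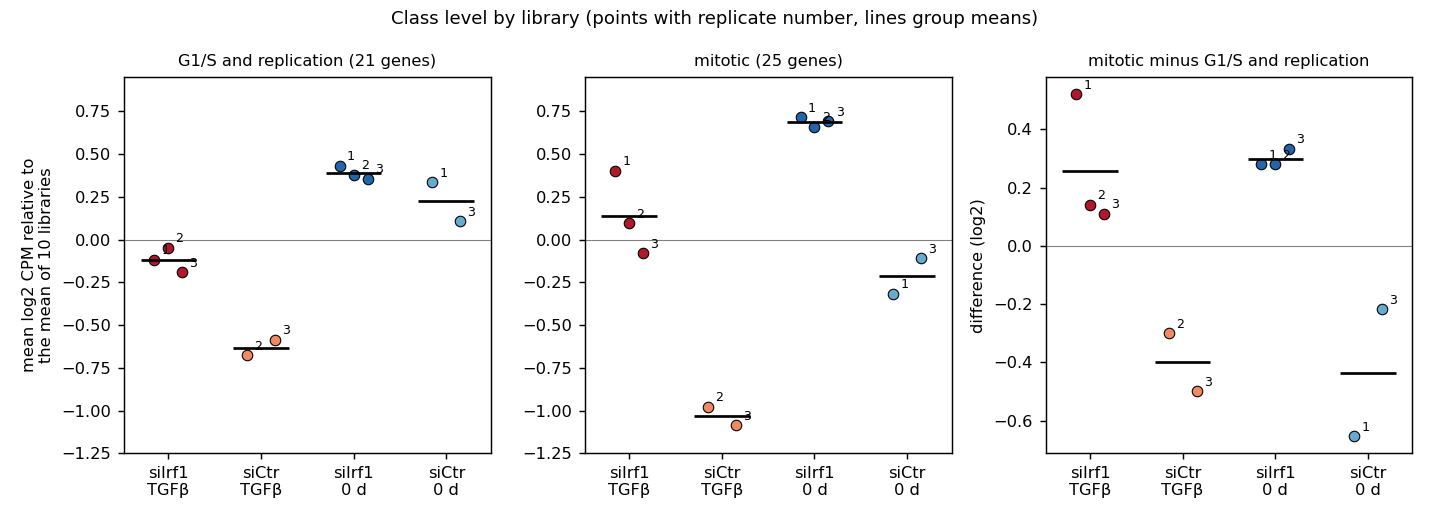
Mean log2 CPM of the genes of G1/S and replication, of the mitotic genes, and the mitotic minus the G1/S and replication level, for each library relative to the mean of the 10 libraries (points with replicate numbers, lines at group means). Both classes are lowest in the siCtr TGFbeta libraries, and the difference is above 0 in the siIrf1 libraries and below 0 in the siCtr libraries.

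Among themselves the genes covered a wide range of levels. Per kilobase of gene length the group mean in siIrf1 0 d cells was 117 CPM for Cdk1, 73.7 for Top2a, 24.9 for Mki67 and 3.83 for Cenpf. In siCtr 0 d cells these levels per kilobase were 101, 20.4, 1.84 and 0.252 CPM. With TGFbeta the levels per kilobase of Cdk1, Mki67 and Cenpf were 70.6, 15.9 and 2.79 CPM in siIrf1 cells and 44.0, 1.56 and 0.268 CPM in siCtr cells. Mki67 and Cenpf are often read as markers of dividing cells. Both stood below Cdk1 in all 4 groups, and by more in the siCtr groups than in the siIrf1 groups.

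The classes also differed in the letters of their promoters, which the choice of genes did not use. RefSeq promoter windows (GRCm38.p6, 250 bases before to 50 after a gene's start) were found for 42 of the 54 genes, in 44 windows. Searched on both strands were the CHR element TTTGAA, an E2F site (TTTCGCGC, TTTGGCGC, TTTCCCGC or TTTGCCGC) and the CCAAT box CCAAT, and letters of different motifs overlapped in 1 of the 44 windows. The CHR element was in 13 of 19 mitotic windows (68.4%) and in 3 of 21 windows of G1/S and replication (14.3%), against 17.9% of 32851 promoters. E2F sites were in 1 of 19 mitotic windows (5.26%) and in 10 of 21 windows of G1/S and replication (47.6%), against 2.26% of all. A CCAAT box was in 17 of 19 (89.5%) and 16 of 21 (76.2%), against 37.4% of all. These shares describe letters and not bound sites. The 6 windows shown belong to genes that carry the results above, namely mitotic genes that fell with TGFbeta in siCtr cells (Cdk1, Ccnb2 and Plk1), replication and E2F genes that fell there (Mcm5 and E2f2) and Mki67, which did not. Capitals mark the 3 motifs on either strand.
Cdk1, chr10:69352863-69353162, minus strand: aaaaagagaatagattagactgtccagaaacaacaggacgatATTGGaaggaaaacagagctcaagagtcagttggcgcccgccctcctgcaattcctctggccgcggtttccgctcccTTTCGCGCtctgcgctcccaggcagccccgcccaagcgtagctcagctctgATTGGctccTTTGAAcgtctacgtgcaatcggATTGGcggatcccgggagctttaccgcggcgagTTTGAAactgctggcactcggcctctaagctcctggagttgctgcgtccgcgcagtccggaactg
Ccnb2, chr9:70421505-70421804, minus strand: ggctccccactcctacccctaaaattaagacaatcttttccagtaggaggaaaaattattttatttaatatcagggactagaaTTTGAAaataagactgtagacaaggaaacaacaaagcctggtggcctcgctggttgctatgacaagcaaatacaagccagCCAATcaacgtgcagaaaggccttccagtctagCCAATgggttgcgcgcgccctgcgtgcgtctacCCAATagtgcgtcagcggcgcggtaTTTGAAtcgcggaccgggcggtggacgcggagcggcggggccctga
Plk1, chr7:122159185-122159484, plus strand: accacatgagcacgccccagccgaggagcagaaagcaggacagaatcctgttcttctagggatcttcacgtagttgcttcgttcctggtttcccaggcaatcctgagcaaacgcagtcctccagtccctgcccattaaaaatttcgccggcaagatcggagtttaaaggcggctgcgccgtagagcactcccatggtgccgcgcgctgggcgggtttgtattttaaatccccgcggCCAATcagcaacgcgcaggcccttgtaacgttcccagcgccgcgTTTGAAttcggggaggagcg
Mki67, chr7:135716330-135716629, minus strand: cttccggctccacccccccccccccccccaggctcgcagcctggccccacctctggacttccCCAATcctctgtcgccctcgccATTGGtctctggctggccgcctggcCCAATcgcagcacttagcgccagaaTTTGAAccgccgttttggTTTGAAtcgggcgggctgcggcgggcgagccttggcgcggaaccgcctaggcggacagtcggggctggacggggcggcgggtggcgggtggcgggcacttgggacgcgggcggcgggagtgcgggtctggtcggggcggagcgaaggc
Mcm5, chr8:75109259-75109558, plus strand: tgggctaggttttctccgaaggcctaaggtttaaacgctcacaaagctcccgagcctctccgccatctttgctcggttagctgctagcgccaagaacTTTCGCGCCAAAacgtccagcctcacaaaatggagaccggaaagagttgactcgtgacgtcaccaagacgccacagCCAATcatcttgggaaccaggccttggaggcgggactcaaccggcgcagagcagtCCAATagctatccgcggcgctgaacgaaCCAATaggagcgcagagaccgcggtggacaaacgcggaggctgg
E2f2, chr4:136172024-136172323, plus strand: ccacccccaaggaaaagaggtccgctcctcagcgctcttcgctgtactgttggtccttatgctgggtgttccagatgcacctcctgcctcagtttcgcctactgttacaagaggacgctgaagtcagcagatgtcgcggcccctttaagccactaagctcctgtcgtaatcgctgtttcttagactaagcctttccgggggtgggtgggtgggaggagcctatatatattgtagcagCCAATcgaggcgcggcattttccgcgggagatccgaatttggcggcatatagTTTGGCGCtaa

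In these windows Cdk1 held CHR elements at -71 and -15 from the gene's start, Ccnb2 at -167 and 5, Plk1 at 31 and Mki67 at -116 and -98. The 2 E2F sites of Mcm5 lay at -153 and -149 and overlapped each other, and that of E2f2 lay at 40. E2f2 had a second window, not shown, with a CHR element at -31, CCAAT boxes at -174, -133 and -53, and no E2F site. The window of Mki67 carried the same 2 kinds of motif as those of Ccnb2 and Plk1, while its level in siCtr cells did not pass the test for TGFbeta and theirs fell. Of the other mitotic genes that did not pass, Cenpf, Kif11, Kif23, Top2a and Ttk also held a CHR element and a CCAAT box. Bub1 and Cenpe held a CCAAT box alone, Nusap1 held neither and Tpx2 had no window. Of the mitotic genes that fell, Ccnb1 and Cdc25b held a CCAAT box alone, Birc5 held neither, and the others with a window held both. How the motifs went with the response to TGFbeta was not tested.

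Other genes of the same processes were listed with earlier results of these data known. Of 45 further replication genes 29 fell with TGFbeta in siCtr cells, at a background of 16.3% of all genes down, and 21 fell in siIrf1 cells, at a background of 9.71%. In neither did any rise (0 by edgeR, 0 at an unadjusted p under 0.05, and 0 by DESeq2). Mcm10, an initiation factor, fell by 1.61 in siCtr cells and by 0.90 in siIrf1 cells. Lig1, the replicative DNA ligase, fell by 1.16 in siIrf1 cells. Of 66 further mitotic genes 34 fell in siCtr cells and 21 in siIrf1 cells, at the same backgrounds, and 0 rose in either (edgeR; 0 at an unadjusted p under 0.05, and 0 by DESeq2). The condensin subunit gene Ncapd2 fell by 1.83 in siCtr cells, with a positive difference between siRNAs of 1.28 ± 0.23 (adjusted p = 0.0133). Under the siRNA against Irf1, 19 of the 66 rose and 7 fell at 0 d, at a background of 16.3% up and 15.5% down, so that the share that fell (10.6%) was under the background. With TGFbeta 34 rose and 1 fell, at a background of 9.72% up and 8.28% down. Smc4, the core ATPase of condensin, rose by 3.12 with TGFbeta, and Hmmr, a spindle protein, by 3.12 at 0 d.

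Of 33 further regulators tested, 10 fell with TGFbeta in siCtr cells and 8 in siIrf1 cells, at backgrounds of 16.3 and 9.71% of all genes down. By edgeR 0 rose in either, with 1 in siCtr cells and 2 in siIrf1 cells at an unadjusted p under 0.05, and 0 and 1 by DESeq2. Among them were 2 inhibitors of D-type cyclin kinases, opposite in direction to Cdkn2b. Cdkn2c fell by 2.46 and Cdkn2d by 1.86 in siCtr cells, with differences between siRNAs of 1.54 ± 0.31 and 1.42 ± 0.32 (adjusted p = 0.0229 and 0.0351). Cdkn1a, which encodes the inhibitor p21, rose under the siRNA against Irf1 by 1.19 ± 0.18 at 0 d (adjusted p = 0.00149) and by 1.11 ± 0.18 with TGFbeta (0.00247). Btg2, an antiproliferative gene, rose by 1.46 at 0 d and by 1.06 with TGFbeta. Cdkn1a and Btg2 thus rose in the same comparisons of bulk RNA as Mki67, Bub1 and Ccnd2. At 0 d Foxm1, E2f8, Aurkb, Plk1, Cdc25b, E2f2 and Myc fell in the same libraries. Whether single cells held both kinds of transcript was not tested.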

How the data were processed

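RNA was sequenced in the 10 libraries of the 4 groups, from stranded libraries per the labels' protocols. The authors deposited whole-number read counts per gene, and per the submitters' processing notes reads were aligned with STAR to mm10 (GRCm38). The STAR version, how reads were counted and whether strand was used were not given in the sources used here, so that reads of a gene and of one overlapping it on the other strand cannot be told apart. The table's other column, the gene length, served for levels per kilobase and for the trend.

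Groups came from the siRNA and treatment labels. The members, the lists, the alternatives and the rule for genes named were chosen with earlier results of these data known. That rule gave all 54 genes, with values in every library for those called in the interaction, the 3 genes of each class with the smallest adjusted p in the other comparisons, and 12 genes whatever their p. Other genes described were chosen after their values were seen. Identifiers matched RefSeq (GRCm38.p6) symbols for 24374 of 24454 rows.

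The deposited counts went into edgeR 4.0.16 under R 4.3.3, with filterByExpr, TMM scaling and the quasi-likelihood F test with robust estimation. All 10 libraries entered 1 model with a term per group, which left 6 residual degrees of freedom. SE was taken as the absolute log2 fold change over the root of F. The method was tested on simulated data. The length and GC trend was fitted per library as splines with 5 degrees of freedom on log2 gene length and on GC content, which 95.0% of genes tested had, read from each gene's longest transcript in GENCODE M21, and entered as offsets. Other alternatives were RLE size factors, no filter, at least 2 CPM in 3 libraries, DESeq2 1.42.0, models of just the groups compared, the replicate block, leaving out each library, and leaving out siCtr 0 d replicate 1 with siIrf1 TGFbeta replicate 2. Replicates of a group differed by more than counting noise (chi-square of 24.8 to 318 for each degree of freedom), and none was counted as a copy. Between siIrf1 TGFbeta and siIrf1 0 d same-numbered libraries deviated together (correlations 0.136, 0.448 and 0.302), and the numbers were taken as pairs there from the data. Sample titles carry a further token that goes with the replicate number in every group, but the labels do not say what it marks.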

Additional observations from a re-analysis of the deposited data

Results flagged for a closer look

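The effect of TGFbeta differed between siIrf1 and siCtr cells, by the test of the difference, for 5 genes of the list. The difference was 1.83 on the log2 scale for E2f2, 1.30 for Plk1, 1.29 for Cdc25b, 1.14 for Aurkb and 1.11 for Foxm1, each positive because the fall was steeper in siCtr cells. In siIrf1 0 d cells all 5 genes stood below siCtr 0 d cells in every library, and in siIrf1 TGFbeta cells E2f2, Cdc25b, Plk1 and Aurkb stood above siCtr TGFbeta cells in every library. The genes were picked by the difference in these same libraries, so that this order of groups is no further support for it. How many of all genes separated in this way was not counted. All 5 genes had transcripts of 52.5 to 56.6% GC, and over all genes the difference had a median of 0.27 in the fifth of highest GC content, against -0.57 in the fifth of lowest. Its part in these differences was not tested beyond the removal of the trend, with which the 5 genes stayed called. With the replicate number as a block Foxm1 was not called, with the trend removed (adjusted p = 0.0790) or without that (0.0686).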

How the results depend on the processing

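Leaving aside single libraries, 204 of the counts and class medians stayed within the spread or within 1.5 times of those reported and 16 moved; for single genes 820 values kept direction and call, 55 lost the call and 2 changed sign, both of Cdkn1b at 0 d (-0.28 with the trend removed, -0.45 with the replicate block as well). The cause was not tested. With at least 2 CPM in 3 libraries the G1/S and replication median was -0.74 with TGFbeta in siCtr cells and 0.24 for the difference between siRNAs. In that difference 3 genes were called positive, at a background of 3.64% of all genes called, and DESeq2 called 12, at 4.77%. With the length and GC trend removed 10 were called positive there, at a background of 9.53% of all genes called. Under the siRNA against Irf1 with TGFbeta 31 rose (28 with the replicate block as well), at backgrounds of 27.2 and 25.2%. In siCtr cells the G1/S and replication median with TGFbeta was then -0.97 and the mitotic one differed from it by 0.0069. Removal of siCtr 0 d replicate 1 and siIrf1 TGFbeta replicate 2 together left a single siCtr 0 d library, so that calls are not given. The G1/S and replication medians were then 0.072 for the siRNA at 0 d, 0.21 with TGFbeta and 0.096 for the difference, from which the mitotic median stood 0.34 higher.

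Leaving out 1 library at a time gave, with TGFbeta in siCtr cells, 1 to 3 rises, 23 to 32 falls, and medians of -0.86 to -0.62 for G1/S and replication and -1.04 to -0.92 for mitosis (difference -0.30 to -0.14). In siIrf1 cells it gave 1 to 2 rises, 10 to 24 falls, and medians of -0.54 to -0.47 and -0.62 to -0.47 (difference -0.15 to 0.059). For the siRNA at 0 d it gave 10 to 17 rises, 1 to 10 falls, and medians of -0.17 to 0.073 and 0.15 to 0.28 (difference 0.15 to 0.41), and with TGFbeta 5 to 24 rises, 0 to 1 falls, and 0.28 to 0.43 and 0.59 to 0.76 (difference 0.27 to 0.45). For the difference between siRNAs it gave 0 to 9 positive and 0 to 1 negative calls, and 0.19 to 0.41 and 0.37 to 0.54 (difference -0.039 to 0.25).

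Across those removals the share of all genes called moved as well, and removal of a siCtr library left a single one in its group. With the replicate block 3 genes rose and 30 fell with TGFbeta in siCtr cells, at a background of 33.1% of all genes called. In siIrf1 cells 1 rose and 24 fell, at 23.2%. For the siRNA at 0 d 14 rose and 8 fell, at 39.8% (2591 up and 2642 down of 13135 genes). With TGFbeta 19 rose and 1 fell, at 17%. The difference gave 5 positive calls, at 3.97%. Cdk2 lost its call in siIrf1 cells, where the numbers were taken as pairs from the data. In comparisons with siCtr cells libraries share a number and the title token that goes with it, whose meaning is not given, and the siCtr groups have only number 3 in common; there Rrm1, Ccnb1, Kif11 and, for the difference, Foxm1 (adjusted p = 0.0686) lost their calls. Over all pairs of groups the correlations of deviations ran from -0.39 to 0.45.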

Other observations

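Among genes of the same processes outside the list, some not yet described are given here, chosen after their values were seen from those named by the same rule. With TGFbeta Rfc5, a subunit of the clamp loader, fell by 1.52 (log2) in siCtr cells, and Iqgap3, a scaffold protein of proliferating cells, fell by 2.36 in siCtr cells and by 1.13 in siIrf1 cells. In siIrf1 cells the checkpoint kinase gene Chek2 fell by 0.92 with TGFbeta and Melk, a kinase gene of mitotic cells, fell by 0.74. Espl1, the gene of separase, which opens the cohesin ring at anaphase, had a positive difference between siRNAs of 1.17 ± 0.24 (SE, edgeR, adjusted p = 0.0246).

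The siRNA against Irf1 at 0 d went with lower H2afx, the gene of the histone variant marked at DNA breaks, by a log2 fold change of -1.87 against siCtr 0 d cells. Dnmt1, the maintenance DNA methyltransferase, and Pole, the catalytic subunit of the leading-strand polymerase, had log2 fold changes of -0.73 and -0.70. With TGFbeta Mastl, a kinase gene that holds a mitotic phosphatase in check, rose by 2.26 under the siRNA, and Dna2, a nuclease and helicase of Okazaki fragment processing, by 0.82. Each of these 5 changes had an edgeR adjusted p between 0.000256 and 0.00613. The genes were named for small p-values in these same libraries, so that separation of their libraries by siRNA would add no support.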
